A study of Mus musculus with 12 samples.

Results

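Nr4a1, Nr4a2 and Nr4a3 (also known as Nur77, Nurr1 and Nor1) are the 3 genes of the NR4A family of nuclear receptors, and their spliced reads were followed here over 6 groups of mouse neocortical libraries. The members were taken by gene symbol from the 2 deposited intron tables, with each distinct junction coordinate counted once. They were 3 of 19414 genes with annotated spliced reads in the first table, and 3 of 18158 in the second. Over both tables they had 128 distinct junctions, of which 53 belonged to Nr4a1, 35 to Nr4a2 and 40 to Nr4a3.

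The study examined intron retention in neocortex and its dependence on neuronal activity by sequencing polyadenylated RNA from wild-type NMRI mice. Of 12 libraries, 2 came from neocortex at postnatal day 10 (P10) and 2 from postnatal day 49 (P49). The other libraries came from dissociated neocortical cells of embryonic day E16.5 kept in culture for 14 days, with 2 libraries in each of 4 groups. These were cultures without drug (control), cultures given DRB at 50 uM for 2 hours in a first and in a second experiment, and cultures of the second experiment given the same DRB together with bicuculline at 20 uM for 1 hour. DRB is an inhibitor of the kinase that releases RNA polymerase II into productive elongation. Bicuculline blocks GABA-A receptors and thereby raises network activity. No treated group was without DRB, so the effect of bicuculline was measured only in its presence, and the cultures hold mixed cell types. P10, P49, control and first-experiment DRB libraries are in the first table, and both second-experiment groups are in the second. Some column names of the first DRB group also mention TTX, a blocker of action potentials. No label says whether those cultures received it.

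The NR4A receptors bind DNA as orphan receptors: their ligand pocket is filled by bulky side chains, so that their activity follows mostly from how much protein is made. Their genes are immediate early genes, which calcium and cAMP signals switch on within minutes through CREB, MEF2 and SRF without new protein synthesis, and in neurons synaptic activity is the usual trigger. Nr4a1 and Nr4a2 can pair with retinoid X receptors, while Nr4a3 does not. Nr4a2 is required for the development of midbrain dopamine neurons and marks a subset of deep-layer cortical neurons.

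Spliced reads used per library ranged from 49205479 to 73326898 in the first table and from 61902894 to 69276360 in the second, and 99.1% to 99.3% of spliced reads fell on annotated junctions. Values are CPM, reads scaled to library size, which give a gene's share of the spliced reads of its library and not an amount per culture. In bulk samples, fewer cells of a type and less RNA per cell cannot be told apart. All 6 neuronal markers were detected in every group, with a summed level of 4394 to 4425 CPM at P10, 7057 to 7074 CPM at P49, 1611 to 1721 CPM in control cultures and 3129 to 3220 CPM in first-experiment DRB cultures. Over the 4 of 5 endothelial and mural markers in the table the control libraries summed to 626 to 764 CPM against 171 to 173 CPM with DRB, with Cldn5 having no row. The 5 oligodendrocyte markers summed to 60.7 to 74.6 CPM in control cultures, 879 to 1027 CPM at P10 and 2648 to 2696 CPM at P49. The 5 astrocyte markers summed to 1539 to 1551 CPM in control cultures, 1347 to 1438 CPM with DRB, 640.5 to 678 CPM at P10 and 556 to 566 CPM at P49, where Gja1 was at 0. The 5 microglial markers summed to 31.6 to 41.1 CPM in control cultures and 31.7 to 36.3 CPM with DRB, where Tmem119 was at 0, and to 191 to 206 CPM at P10 and 181 CPM at P49. In the second table the neuronal sum was 2684 to 2876 CPM with DRB and 2626 to 2791 CPM with DRB and bicuculline, so these ranges overlapped. The comparisons below, that of bicuculline included, therefore come with different levels of some markers on each side. The part of cell composition in them was not tested.

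Levels were compared between the 3 genes per junction, as the mean CPM over the listed introns of each principal transcript (6 introns for Nr4a1, 7 for Nr4a2, and 6 of 7 for Nr4a3, whose intron 2 has no row in either table). At P10 the genes lay close together. Nr4a1 had 5.28 and 4.93 CPM per junction, Nr4a2 3.69 and 3.44, and Nr4a3 3.23 and 2.95. At P49 they spread apart, with Nr4a1 at 19.3 and 18.5, Nr4a2 at 4.08 and 4.61, and Nr4a3 at 1.44 and 1.52 CPM per junction. Nr4a1 thus made up 43.4% ± 0.15 (SD, n = 2) of the family's level per junction at P10 and 76.4% ± 1.9 (SD, n = 2) at P49. The share of Nr4a3 was 26.3% ± 0.27 at P10 and 5.99% ± 0.27 at P49.

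Control cultures had Nr4a3 on top, followed by Nr4a1 and Nr4a2. Nr4a3 stood at 6.01 and 6.08 CPM per junction, Nr4a1 at 2.42 and 2.38, and Nr4a2 at 0.981 and 1.06. Nr4a3 was 63.9% ± 0.036 (SD, n = 2) of the family there. With DRB in the first experiment Nr4a1 was the highest of the family at 14.1 and 14.3 CPM per junction, against 6.28 and 7.06 for Nr4a3 and 1.51 and 1.69 for Nr4a2. The log2 ratio of Nr4a1 to Nr4a3 within a library was -1.31 and -1.35 in control cultures and 1.17 and 1.02 with DRB, so the sign differed between the groups in both libraries.

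In the second experiment, whose table was scaled separately, DRB cultures had Nr4a1 at 10.5 and 13.4 CPM per junction, Nr4a3 at 8.14 and 8.89 and Nr4a2 at 1.80 and 1.89. With bicuculline Nr4a1 stood at 32.2 and 29.8, Nr4a3 at 10.7 and 10.6, and Nr4a2 at 3.16 and 2.93 CPM per junction. Libraries of these groups did not overlap for any of the 3 genes, but the share of all genes without overlap was not counted. The log2 ratio of Nr4a1 to Nr4a3 was 0.48 ± 0.16 (SD, n = 2) with DRB and 1.53 ± 0.068 with bicuculline added, while that of Nr4a1 to Nr4a2 was 2.68 ± 0.20 and 3.35.

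Ordered by level, Nr4a1 ran from bicuculline cultures through P49, DRB of the first experiment, DRB of the second, and P10 down to control cultures. Its DRB groups of the second (11.9 ± 2.1 CPM per junction, SD, n = 2) and the first experiment (14.2 ± 0.11) were neighbours in that order whose means differed by about the larger SD. Nr4a2 was highest at P49 (4.34 ± 0.37) and P10 (3.56 ± 0.17), then with bicuculline (3.04 ± 0.17), DRB of the second (1.84 ± 0.062) and of the first experiment (1.60 ± 0.13), and lowest in control cultures (1.02 ± 0.053). Nr4a3 was highest with bicuculline (10.7 ± 0.079), followed by DRB of the second (8.52 ± 0.53) and the first experiment (6.67 ± 0.55), control cultures (6.04 ± 0.047), P10 (3.09 ± 0.19) and P49 (1.48 ± 0.056). The means of Nr4a3 with DRB in the first experiment and in control cultures also differed by about the larger SD. With the plain library total the control mean was 6.54 and lay above that with DRB. The order of these groups therefore depends on the scaling. Levels from different tables are set side by side without a test.

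**Figure D1:**
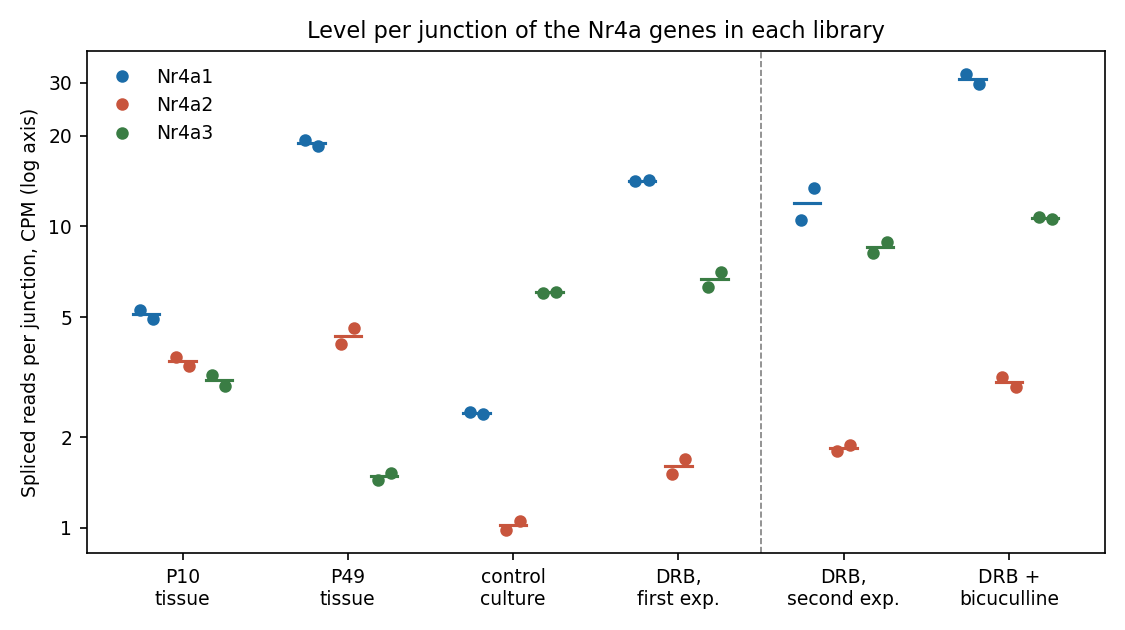
Spliced reads per junction (CPM, log axis) of Nr4a1, Nr4a2 and Nr4a3 in the 6 groups. Each point is a library, each bar a group mean, and the dashed line parts the 2 tables, which were scaled separately. Nr4a1 lies below Nr4a3 in control cultures, at 2.42 and 2.38 CPM per junction, and is the highest of the family in the other 5 groups.

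Changes between groups were tested on gene sums, the annotated spliced reads of each gene, with edgeR's quasi-likelihood test and Benjamini-Hochberg adjustment over all genes of a table, called at an adjusted p under 0.05. Comparisons of the first table share groups: P10, P49 and control each stand in 2 or 3 of them. The labels do not tie the libraries of a group to different animals or dishes, and p-values therefore reflect only how far these libraries differ, which may be technical variation.

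Between the tissue ages the family members went different ways. Nr4a1 summed to 31.7 and 29.6 CPM at P10 and 116 and 111 CPM at P49, and the groups did not overlap. It rose 3.70-fold, by 1.89 ± 0.055 on the log2 scale (SE; edgeR adjusted p = 6.1e-10). Nr4a3 summed to 19.4 and 17.7 CPM at P10 and to 8.64 and 9.12 CPM at P49, again without overlap. It fell by 1.06 ± 0.084 on the log2 scale (edgeR adjusted p = 8.3e-07). Nr4a2 was 26.8 and 24.9 CPM at P10 and 29.4 and 33.2 CPM at P49. Its rise of 0.27 ± 0.086 on the log2 scale passed the test (edgeR adjusted p = 0.018), but the call was lost without the second-listed P49 library (log2 change 0.19, adjusted p = 0.16) or without the second-listed P10 library (0.22, adjusted p = 0.090). Of all 15434 genes tested 56.6% were called, 27.9% higher and 28.7% lower at P49, so being called sets no member apart.

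With DRB for 2 hours Nr4a1 and Nr4a2 were called higher than in control cultures, and Nr4a3 was not called. Nr4a1 summed to 14.5 and 14.3 CPM in control cultures and to 85.1 and 85.8 CPM with DRB. The libraries lay tightly within each group and far apart between groups. The gene rose 5.93-fold, by 2.57 ± 0.059 on the log2 scale (edgeR adjusted p = 1.2e-09), which was rank 1 of 15434 genes by p and rank 33 by size among the 4569 genes called higher. Nr4a2 summed to 7.24 and 7.58 CPM in control cultures and to 11.2 and 12.4 CPM with DRB, and rose by 0.67 ± 0.096 on the log2 scale (edgeR adjusted p = 7.6e-05). Nr4a3 was 36.4 and 36.8 CPM in control cultures and 38.3 and 42.8 CPM with DRB. Its groups did not overlap on this scale but did with the plain library total. The log2 difference of 0.15 ± 0.077 was not called (edgeR adjusted p = 0.12). In a fit of only these 4 libraries it was called, at 0.17 (adjusted p = 0.029). Of all genes 29.6% were called higher and 33.1% lower. Since CPM are relative to the spliced reads left after 2 hours of DRB, a gene called higher need not have gained RNA.

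With bicuculline added to DRB all 3 members rose, in a comparison in which 0.203% of genes were called. Nr4a1 summed to 63.1 and 80.8 CPM with DRB alone and to 194 and 180 CPM with bicuculline. It rose 2.60-fold, by 1.38 ± 0.071 on the log2 scale (edgeR adjusted p = 5.0e-11). Nr4a2 went from 13.3 and 14.1 to 23.04 and 21.8 CPM, a rise of 0.71 ± 0.071 on the log2 scale (edgeR adjusted p = 3.8e-06). Nr4a3 went from 49.6 and 54.0 to 65.6 and 64.8 CPM, a rise of 0.33 ± 0.051 on the log2 scale (edgeR adjusted p = 0.0014). In none of the 3 genes did a bicuculline library overlap a DRB library, though the share of all genes without such overlap was not counted. Of 14265 genes tested 26 were called higher (0.182%) and 3 lower (0.021%), and the members held ranks 12, 21 and 26 by size among those 26. Among all genes the log2 changes of Nr4a1, Nr4a2 and Nr4a3 lay at the percentiles 99.8, 99.0 and 96.5. The 3 rises kept their call in all 9 alternatives run, with log2 changes of 1.21 to 1.57, 0.67 to 0.76 and 0.27 to 0.40.

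Set against tissue, control cultures had less Nr4a1 and Nr4a2 and more Nr4a3. Against P10, Nr4a1 was lower in culture by a log2 difference of -1.09 ± 0.058 (edgeR adjusted p = 9.5e-09) and Nr4a2 by -1.80 ± 0.094 (edgeR adjusted p = 7.3e-09). Nr4a3 was higher by 0.98 ± 0.079 (edgeR adjusted p = 3.5e-07). Against P49 the log2 differences were -2.98 ± 0.059 for Nr4a1, -2.08 ± 0.094 for Nr4a2 and 2.04 ± 0.084 for Nr4a3, all called (edgeR adjusted p = 2.6e-12, 1.6e-09 and 6.8e-10). Against P10 73.9% of all genes were called, 36.9% higher and 37% lower, and against P49 76.3%, 39.4% higher and 36.9% lower. Age, culture and cell composition cannot be told apart in them.

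**Figure D2:**
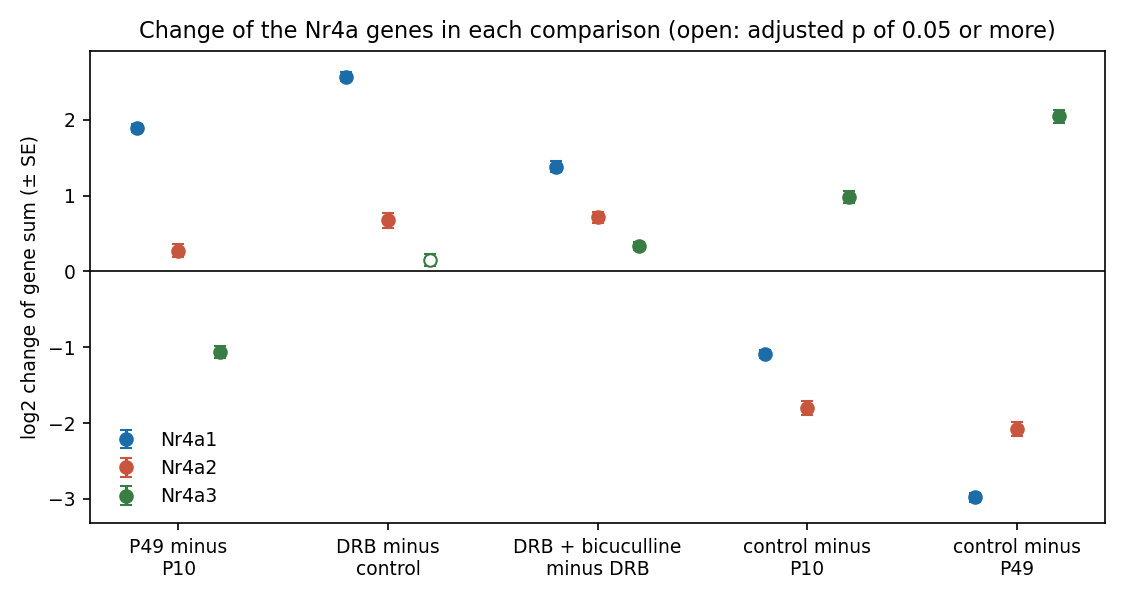
Log2 change of the gene sums of Nr4a1, Nr4a2 and Nr4a3 in the 5 comparisons, with bars of ± SE from edgeR. Filled points passed an adjusted p under 0.05. The open point is Nr4a3 with DRB against control (0.15). All 3 genes lie above 0 with bicuculline, while Nr4a3 lies on the other side of 0 from Nr4a1 in both comparisons of control cultures with tissue and between the tissue ages.

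Since the members rose together with bicuculline, their promoter sequences are shown. The windows come from RefSeq on GRCm38.p6, and 3 of 3 members matched by symbol. The letters TGACG, the core of the cAMP response element that CREB binds, were searched on both strands, so that CGTCA is the same core on the opposite strand. Capitals mark these matches in the bases before the annotated start of transcription. Nr4a1 lies at chr15:101266596-101266845 (plus strand), Nr4a2 at chr2:57124004-57124253 (minus strand) and Nr4a3 at chr4:48045055-48045152 (plus strand). The Nr4a3 stretch ends before the GENCODE start of the principal transcript.

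Nr4a1: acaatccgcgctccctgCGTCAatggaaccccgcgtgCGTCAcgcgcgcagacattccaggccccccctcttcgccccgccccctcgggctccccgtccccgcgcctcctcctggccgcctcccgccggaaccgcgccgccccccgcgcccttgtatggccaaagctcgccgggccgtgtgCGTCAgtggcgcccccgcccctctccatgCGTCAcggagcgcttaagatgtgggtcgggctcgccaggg

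Nr4a2: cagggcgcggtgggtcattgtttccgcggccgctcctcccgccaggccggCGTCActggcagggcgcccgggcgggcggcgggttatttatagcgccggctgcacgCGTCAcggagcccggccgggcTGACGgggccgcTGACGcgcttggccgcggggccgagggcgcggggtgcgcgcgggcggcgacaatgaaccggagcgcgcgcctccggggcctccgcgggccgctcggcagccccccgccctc

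Nr4a3: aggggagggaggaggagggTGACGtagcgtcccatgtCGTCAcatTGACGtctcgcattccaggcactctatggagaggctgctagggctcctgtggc

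Each of the 3 windows of 300 bases held 4 such cores. Of 32851 promoter windows of the same length 20.8% held at least 1 core and 0.231% held 4 or more. Positions are relative to the RefSeq start. In Nr4a1 all 4 read CGTCA, beginning at -233, -213, -69 and -40. In Nr4a2 the cores began at -200, -144, -123 and -111, and in Nr4a3 at -231, -213, -205 and -147. The RefSeq start of Nr4a3 (48045305) lies downstream of the GENCODE start (48045153), before which the printed stretch ends. The core at -147 therefore lies beyond that stretch. The full palindrome TGACGTCA was in none of the 3 windows and in 1.79% of all windows. The response element AAAGGTCA, to which NR4A monomers bind, was in none of the 3 and in 1.51% of all. The Nr4a2 window belongs to a distal first exon that starts 8965 bases before the principal transcript, and the tables list no spliced reads from that exon. Matches are descriptions of letters and were not tied to binding in these samples.

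Nr4a1 (ENSMUSG00000023034.7) lies on the plus strand of chromosome 15 at 101254269-101274795 in GRCm38, the build of the files (mm10). Its principal transcript has 7 exons and 6 introns. Intron 1, chr15:101266972-101270082, lies in the 5′ untranslated region. The 5 coding introns lie at chr15:101270970-101271735, 101271866-101272152, 101272305-101272717, 101272921-101273014 and 101273194-101273995. Of the 53 junctions listed for the gene 8 were annotated, and all 8 had at least 10 reads in a library. The other 45, none annotated, had at most 21 reads in a library, and at most 0.53% of the reads of the gene in any library.

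The share of the first intron in the reads of Nr4a1 differed between groups. At P10 it had 105 and 81 reads, which was 25.5% and 19.3% of the mean of the coding introns in the same library. At P49 it had 645 and 598 reads, or 45.7% and 50.4%. Control cultures had 25 and 46 reads (16.7% and 29.0%), and first-experiment DRB cultures 442 and 490 (51.7% and 53.4%). So P10 and control cultures, in which Nr4a1 was lowest, also had the smallest first-intron share, and did not overlap P49 or DRB. In the second experiment the intron had 306 and 425 reads with DRB (40.6% and 46.4%) and 1260 and 1053 with bicuculline (52.3% in both).

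Tested as junction usage with edgeR's diffSpliceDGE, the log2 change of a junction minus that of its gene, the first intron gained 1.03 ± 0.14 at P49 against P10 (SE; edgeR adjusted p = 8.0e-07 over all junctions). It gained 1.11 ± 0.18 with DRB against control (edgeR adjusted p = 4.6e-05) and was at -0.99 ± 0.18 in control cultures against P49 (edgeR adjusted p = 8.5e-05). The DRB and the control against P49 calls rest on the control libraries: without the first-listed one the values were 0.79 (adjusted p = 0.14) and -0.67 (adjusted p = 0.13). Of all junctions tested 1.56% were called in each of the first 2 comparisons and 5.32% between control cultures and P49. Control against P10 (0.038 ± 0.23) and bicuculline against DRB (0.23 ± 0.20) were not called (edgeR adjusted p = 0.98 and 1.00). Among the coding introns of Nr4a1 none was called in any comparison. The gene-level test, which combines a gene's junctions by Simes' method, called Nr4a1 at P49 against P10 (edgeR adjusted p = 9.0e-07, with 7.16% of genes called), with DRB (edgeR adjusted p = 4.9e-05, with 6.86% called) and in control cultures against P49 (edgeR adjusted p = 0.00012, with 18% called). It called no member with bicuculline, where 0.0164% of genes were called, or in control cultures against P10, where 14.7% were.

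A cassette exon within intron 1 was read mostly in the second experiment. Its downstream junction, chr15:101269104-101270082, had 20 and 20 reads with DRB and 63 and 66 with bicuculline, 13 and 6 in first-experiment DRB cultures, 2 and 1 at P10, 5 and 0 at P49, and 0 and 0 in control cultures. Against the reads of intron 1 this was 5.31% ± 1.2 (SD, n = 2) with DRB and 5.33% ± 0.80 with bicuculline in the second experiment, which differed by less than either SD. In the first experiment it was 2.03% ± 1.2 with DRB, and 0 of 71 reads in control cultures allow up to 4.23%. Its upstream junction, chr15:101266972-101268927, had 0 to 7 reads in the libraries without bicuculline and 29 and 13 with it. Usage of neither junction was called between bicuculline and DRB, with log2 values of 1.11 ± 1.3 upstream and 0.26 ± 0.69 downstream (edgeR adjusted p = 1.00 for both), so a difference of that size was not detectable at this depth. Limits for counts of 0 use 3 reads and, like the intervals below, cover counting error only.

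**Figure D3:**
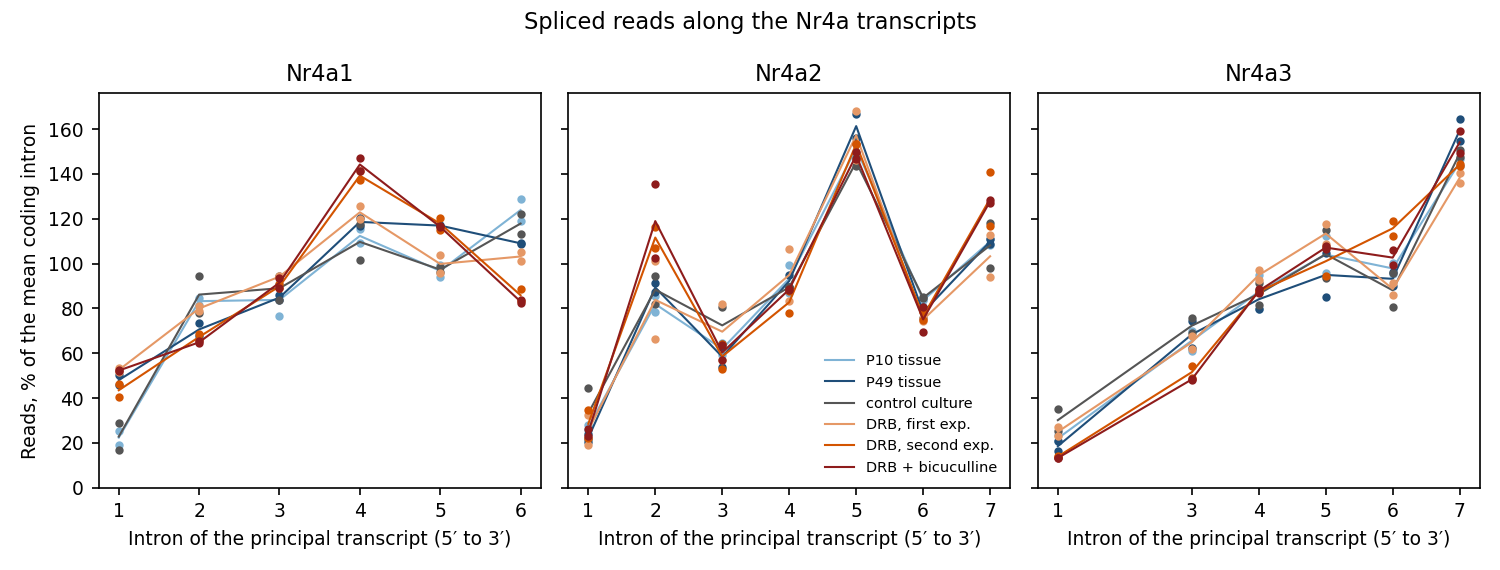
Reads across each intron of the principal transcript, as a percentage of the mean over the coding introns of the same gene and library. Points are libraries, lines join group means, and intron 2 of Nr4a3 has no row. In Nr4a1 intron 1 lies at 16.7% to 29.0% at P10 and in control cultures and at 40.6% to 53.4% in the other groups.

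Nr4a2 (ENSMUSG00000026826.13) lies on the minus strand of chromosome 2 at 57106830-57124003, with 8 exons and 7 introns in its principal transcript. The noncoding introns 1 and 2 lie at chr2:57113073-57114717 and 57112442-57112950. The coding introns 3 to 7 lie at chr2:57110767-57111575, 57110278-57110636, 57109266-57110113, 57108740-57109062 and 57108413-57108560. Of 35 junctions listed 11 were annotated, and 10 of these had at least 10 reads in a library. The other 25 had at most 18 reads in a library, and unannotated junctions held 0.22% to 3.25% of the reads of the gene. No Nr4a2 junction was called in any comparison out of the 9 tested in each. Between 0.00218% and 5.48% of all junctions were called in these comparisons, so a count of 0 does not set the gene apart.

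An acceptor 121 bases inside exon 7 of Nr4a2 was used in every library. Its junction, chr2:57108619-57109062, had 31 and 34 reads at P10, 25 and 27 at P49, 6 and 7 in control cultures, and 31 and 24 with DRB in the first experiment. The exon's own acceptor, chr2:57108740-57109062, had 243 and 243, 250 and 236, 50 and 59, and 72 and 87 reads in these libraries. The inner acceptor thus took 11.8% ± 0.68 (SD, n = 2) at P10, 9.68% ± 0.83 at P49, 10.7% ± 0.077 in control cultures and 25.9% ± 6.0 with DRB. In the second experiment it took 43 and 60 of 212 and 216 reads with bicuculline (24.0% ± 5.3) and 23 and 40 of 120 and 139 with DRB (24.0% ± 6.8). Every DRB library lay above every library without DRB, though the share of all junctions separated this way was not counted. The control values rest on only 6 and 7 reads.

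The junction test did not call this difference. With DRB against control the inner acceptor gained 1.35 ± 0.52 on the log2 scale relative to the gene (edgeR unadjusted p = 0.012, adjusted p = 0.31). Pooled over the libraries of a group the exact binomial 95% interval was 5.80% to 17.5% in control cultures (13 of 122 reads) and 20.0% to 32.1% with DRB (55 of 214). These intervals leave out the spread between libraries, which were at 30.1% and 21.6% with DRB, and are no test of the groups. With bicuculline against DRB the log2 value was -0.056 ± 0.30 (edgeR adjusted p = 1.00). With 2 libraries a group an exact permutation test cannot pass 0.05, and none was run. GENCODE lists the inner acceptor only in a transcript of the nonsense-mediated decay class, and 121 is not a multiple of 3.

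The same offset was found in Nr4a3, without annotation. Nr4a3 exon 7 and Nr4a2 exon 7 are both 179 bases long, as is the corresponding exon 6 of Nr4a1. Reads joined the upstream exon to a site 121 bases inside the Nr4a3 exon, chr4:48067863-48071110, against chr4:48067863-48070989 for the exon's own acceptor. There were 5 and 13 such reads with DRB in the first experiment and 0 and 0 in control cultures, 8 and 8 with DRB in the second experiment, and 17 and 8 with bicuculline. P10 had 4 and 2 and P49 had 0 and 0. As a share of reads from this donor this was 2.21% ± 1.2 (SD, n = 2) with DRB against 0 of 672 reads in control cultures, which allows up to 0.446%. It was 1.09% ± 0.081 and 1.45% ± 0.69 in the DRB and bicuculline cultures of the second experiment, 1.21% ± 0.60 at P10, and 0 of 200 reads at P49, which allows up to 1.5%. In Nr4a1 no read used the corresponding position in any library, with 0 of 5147 reads in bicuculline cultures allowing up to 0.0583%.

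The first 121 bases of these coding exons are shown because they end at the inner site. Capitals mark the last 2 bases, which are AG, the bases that end an intron, in Nr4a2 and Nr4a3, and AC in Nr4a1. The stretches are from the GENCODE transcripts, at chr15:101273015-101273135 (plus strand), chr2:57108619-57108739 (minus strand) and chr4:48070990-48071110 (plus strand).

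Nr4a1: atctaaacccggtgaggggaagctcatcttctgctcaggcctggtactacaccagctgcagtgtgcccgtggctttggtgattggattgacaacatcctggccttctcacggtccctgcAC

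Nr4a2: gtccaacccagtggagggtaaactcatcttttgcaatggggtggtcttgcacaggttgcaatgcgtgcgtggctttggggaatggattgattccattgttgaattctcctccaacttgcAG

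Nr4a3: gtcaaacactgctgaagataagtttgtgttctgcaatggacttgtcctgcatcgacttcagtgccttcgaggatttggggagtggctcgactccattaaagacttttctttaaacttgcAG

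Aligned without gaps, Nr4a2 and Nr4a3 were identical at 82 of 121 bases (67.8%), Nr4a1 and Nr4a2 at 79 (65.3%), and Nr4a1 and Nr4a3 at 71 (58.7%). Over the last 10 bases Nr4a2 and Nr4a3 were identical at 9, and Nr4a1 was identical to each of them at 5. A sequence match shows the letters only, and no factor was measured.

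**Figure D4:**
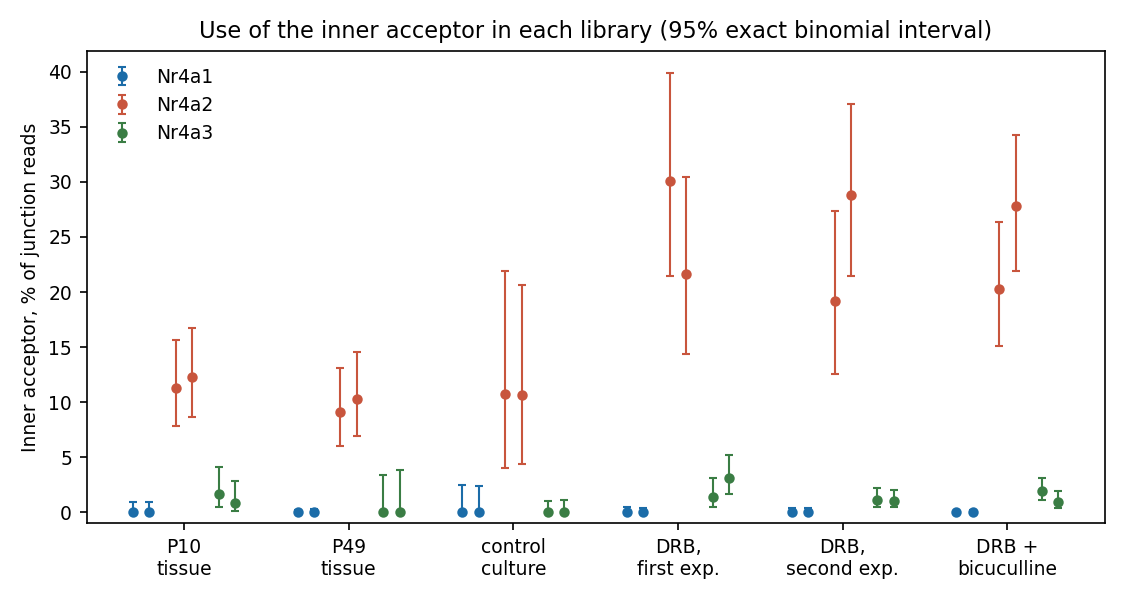
Share of reads from the upstream donor that used the acceptor 121 bases inside exon 7 of Nr4a2 and Nr4a3 and exon 6 of Nr4a1. Each point is a library with its exact binomial 95% interval. For Nr4a2 the 6 libraries with DRB lie above the 6 without, Nr4a3 stays at low values, and Nr4a1 is at 0 throughout. The share of all junctions separated this way was not counted.

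An unannotated junction within exon 7 of Nr4a2, chr2:57108619-57108722, ends at the same inner acceptor. It had 11 and 4 reads at P10, 2 and 4 at P49, 0 and 0 in control cultures and 10 and 5 with DRB in the first experiment, and then 5 and 16 with DRB and 18 and 18 with bicuculline in the second. The other annotated alternative junctions with at least 10 reads in a library lie in the 5′ region. The junction chr2:57112264-57112950, whose acceptor lies 178 bases inside exon 3, took 9.20% ± 2.0 (SD, n = 2) at P10, 6.57% ± 0.019 at P49, 7.58% ± 11 in control cultures (0 and 10 reads), and 4.63% ± 5.1 with DRB. It took 5.61% ± 0.23 with DRB and 5.56% ± 1.2 with bicuculline in the second experiment. An alternative first exon, chr2:57113073-57114274, gave 2 to 12 reads per library and 8.07% to 17.8% of first-intron reads by group mean, with overlapping ranges.

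Nr4a3 (ENSMUSG00000028341.9) lies on the plus strand of chromosome 4 at 48045153-48086447, also with 8 exons and 7 introns. The noncoding intron 1 lies at chr4:48045717-48048951, and the coding introns 3 to 7 at chr4:48052202-48055929, 48056060-48056533, 48056707-48067662, 48067863-48070989 and 48071169-48083104. Of 40 junctions listed 8 were annotated and all 8 had at least 10 reads in a library. The other 32 had at most 17 reads and together at most 1.25% of the gene's reads in a library. The most 3′ intron held the most reads and intron 1 the fewest of the principal introns in every group mean, with group means of 138% to 159% and of 13.3% to 30.2% of the coding mean.

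A cassette exon of the 5′ region of Nr4a3 was read in culture and hardly in tissue. Its upstream junction, chr4:48049129-48049933, had 11 and 7 reads in control cultures and 16 and 14 with DRB in the first experiment, against 1 and 0 at P10 and 0 and 0 at P49. The downstream junction, chr4:48050006-48051245, had 7 and 13, 19 and 10, 1 and 1, and 0 and 0 reads in the same order. In the second experiment the upstream junction had 14 and 19 reads with DRB and 32 and 25 with bicuculline, and the downstream one 31 and 23 and then 48 and 40. These are raw reads. The gene sum held 1935 and 2166 reads in control cultures, 1323 and 1306 at P10, and 574 and 538 at P49. Counts of 0 at P49 therefore lie near the floor. Intron 2, the junction that skips the exon, has no row, so the exon's inclusion could not be measured. Each of the 8 culture libraries exceeded each of the 4 tissue libraries at both junctions, but the share of all junctions separated this way was not counted. The CPM of the whole gene was also higher in every culture library than in every tissue library.

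In the junction test the upstream junction was called in control cultures against P10 (edgeR adjusted p = 0.037), where 5.48% of all junctions were called. Its fitted change is not given, as P10 holds 1 read in all. The gene-level test of Nr4a3 did not pass there (edgeR Simes adjusted p = 0.087), and the call was lost with limma (adjusted p = 0.083), with a minimum of 10 reads (0.052), and without the first-listed control library or either P10 library (0.10 to 0.38). The downstream junction was not called against P10 (edgeR adjusted p = 0.070), and neither junction was called against P49 (edgeR adjusted p = 0.090 and 0.067). With bicuculline no junction of the 3 genes was called out of 25 tested. Of all 137417 junctions edgeR called 0.00218%, and limma called 0 of the members' junctions. At an unadjusted p under 0.05 there was 1 of the members' 25, intron 6 of Nr4a3, beside 3568 of all 137417.

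Of 16 factors that act on NR4A promoters (CREB, its coactivators, MEF2, SRF and partners) none was called with bicuculline by edgeR or DESeq2. Of these factors 1 had an unadjusted p under 0.05, and their median log2 change was -0.0057 against -0.00089 over all genes. As edgeR called 0.203% of all genes there, a count of 0 is near that share. With DRB against control, where 29.6% of all genes were called higher and 33.1% lower, 6 were higher and 7 lower. Atf1, a close relative of CREB, fell by 1.64 ± 0.12 on the log2 scale, and Ep300, a histone acetyltransferase, fell by 1.07 ± 0.063, while Mef2c rose by 0.91 ± 0.059. Between the tissue ages, where 27.9% of all genes were called higher and 28.7% lower, 4 rose and 2 fell (1 fell with DESeq2, without either P49 library or without the first-listed P10 library), among them Elk1 (0.63 ± 0.078) and Crtc1, a CREB coactivator (0.48 ± 0.049), and Mef2c, which fell by 0.59 ± 0.058. The medians were -0.18 with DRB (all genes -0.031) and 0.13 at P49 (all genes -0.00098). In control cultures 6 were higher and 7 lower than at P10 (all genes 36.9% and 37%), and 7 and 7 than at P49 (all genes 39.4% and 36.9%). Crtc3 was higher by 1.80 ± 0.077 and 1.90 ± 0.077 in these, and Mef2c lower than at P10 (-1.70 ± 0.059).

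Of 12 partners and coregulators 11 were tested. None was called with bicuculline by edgeR or DESeq2 (0 at an unadjusted p under 0.05), near the 0.203% of all genes that edgeR called. With DRB 3 rose and 6 fell (all genes 29.6% and 33.1%), and at P49 3 rose and 1 fell (all genes 27.9% and 28.7%). Their median log2 change was -0.14 with DRB (all genes -0.031) and 0.14 at P49 (all genes -0.00098). The retinoid X receptor Rxra, a partner of Nr4a1 and Nr4a2, rose by 1.09 ± 0.081 at P49 and fell by 0.90 ± 0.079 with DRB. Kdm1a, a histone demethylase that corepresses with Nr4a2, fell by 0.43 ± 0.044 at P49. Rxrg was lower in control cultures than at P10 (-2.13 ± 0.21) and at P49 (-2.50 ± 0.21). In each case 4 of the list were higher and 5 lower (all genes 36.9% and 37% against P10, 39.4% and 36.9% against P49).

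Reported targets, chosen mostly from the dopamine neuron program of Nr4a2, had 9 of 10 members tested in the tissue and first DRB comparisons and 8 with bicuculline. None was called with bicuculline by edgeR or DESeq2 (0 at an unadjusted p under 0.05), near the 0.203% of all genes that edgeR called. At P49 1 rose and 4 fell (all genes 27.9% and 28.7%; 2 rose without the first-listed P10 library), with Slc18a2, the vesicular monoamine transporter, at 2.71 and 3.70 CPM at P10 and 0.256 and 0.288 CPM at P49, and Ret, a neurotrophic factor receptor, falling by 1.49 ± 0.12. With DRB 4 rose and 1 fell (all genes 29.6% and 33.1%). Th, the rate-limiting enzyme of dopamine synthesis, rose from 1.03 and 1.09 to 2.44 and 2.44 CPM, and Ret rose by 0.72 ± 0.12. Ddc, which makes dopamine from its precursor, was 9.10 and 8.91 CPM at P10 and 0.771 and 0.849 CPM in control cultures (log2 difference -3.47 ± 0.16). The list's median log2 change was -0.41 at P49 (all genes -0.00098) and 0.35 with DRB (all genes -0.031). In control cultures 2 were higher and 6 lower than at P10 (all genes 36.9% and 37%), with a median of -1.59 against 0.0059 over all genes, and 2 higher and 4 lower than at P49 (all genes 39.4% and 36.9%), with a median of -0.17 against 0.040. The 2 higher became 1 with DESeq2 or without either control library against P10, with upper-quartile scaling or only the compared groups against P10, and with DESeq2, without the first-listed P49 library or without the second-listed control library against P49.

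Of 46 other nuclear receptors 35 were tested in the tissue and first DRB comparisons and 34 with bicuculline. None was called with bicuculline by edgeR or DESeq2 (1 at an unadjusted p under 0.05). The 3 NR4A genes were all called there. As edgeR called only 0.203% of all genes, a count of 0 does not set the other receptors apart. At P49 18 rose and 4 fell (all genes 27.9% and 28.7%), with a median log2 change of 0.40 against -0.00098 over all genes. With DRB 4 rose and 15 fell (all genes 29.6% and 33.1%), with a median of -0.30 against -0.031. In control cultures 9 were higher and 15 lower than at P10 (all genes 36.9% and 37%), with a median of -0.078 against 0.0059 over all genes. Against P49 6 were higher and 18 lower (all genes 39.4% and 36.9%), with a median of -0.28 against 0.040. With DRB against control Rarg, a retinoic acid receptor, fell by 1.89 ± 0.15. Nr2e1, a receptor of neural stem cells, fell by 1.25 ± 0.072 with DRB, and Nr6a1 rose by 1.49 ± 0.16. Nr4a1 and Nr4a2, which rose with DRB, were on the side of the smaller number in that comparison.

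The genes whose log2 CPM ran most like each member over the 8 libraries of the first table, out of 9197 genes ranked, are given as descriptions, since the points share libraries and scaling. For Nr4a1 these were Copg1 (Pearson r = 0.995), Ccdc159 (0.993) and Add1 (0.991). For Nr4a2 they were Cdh18 (0.998), Ptprt (0.998) and Tmem178 (0.997), and for Nr4a3 Aldh1l2 (0.998), Sidt2 (0.998) and Ubap2l (0.997). The correlation does not weigh the size of a change. At P49 against P10 the log2 changes of Copg1, Ccdc159 and Add1 were 0.48, 0.49 and 0.18, against 1.89 for Nr4a1. In the second table none of the 9 was called with bicuculline. Copg1 was 556 and 527 CPM with DRB and 549 and 516 CPM with bicuculline, Cdh18 13.5 and 12.5 and then 13.1 and 12.9 CPM, and Aldh1l2 28.2 and 25.5 and then 25.9 and 25.3 CPM. The groups overlapped for each of these 3. Ccdc159, at 21.4 and 19.2 CPM with DRB and 17.3 and 18.8 CPM with bicuculline, and Tmem178, at 12.0 and 11.7 and then 10.6 and 11.3 CPM, did not overlap.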

How the data were processed

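Per the submitters' processing notes the authors used STAR 2.4.0f1 and the mm10 build (GRCm38). The sources used here do not state how junctions were counted or filtered. The deposited values used are raw junction counts per library, per the file headers, from stranded poly-A libraries, per the labels' protocols. Rows have 3 fewer cells than the headers, so columns were read after that shift. Column names show a group and no replicate number. Control, P49 and second-experiment DRB columns were assigned by elimination (the last are headed ctl, while the labels give their table DRB and DRB with bicuculline only), and libraries are numbered in column order. Both P10 columns share a tissue code and the P49 columns do not, so the P10 libraries may come from a single tissue sample and their SD may be technical. A further 72 columns of per-library values were not used, so intron retention is not reported here.

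Distinct junctions were matched to GENCODE mouse release 21 and summed per gene, and reads spanning more than 1 junction add to each of them. Genes and junctions passing filterByExpr were tested in edgeR 4.0.16 (TMM, quasi-likelihood test, diffSpliceDGE for junctions, R 4.3.3), with all 8 or all 4 libraries of a table sharing the spread, after a check on simulated data. DESeq2 1.42.0, limma 3.58.1, other scalings and filters and left-out libraries were alternatives. Shares have exact Clopper-Pearson intervals at 95%.

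The members and lists were chosen with earlier results of these data known. Named were the members in every comparison, each annotated junction with at least 10 reads in a library, at most 3 called genes with the largest change per list and comparison, and the 3 genes with the highest correlation to each member (log2 CPM, prior count 0.5, mean at least 3). Values of some genes that this rule names are not reported here.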

Additional observations from a re-analysis of the deposited data

Results flagged for a closer look

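Some junctions without annotation, which entered no gene sum, had more reads in both treated or older libraries than in either control or younger one, with at least 10 in a library. With DRB against control cultures these were an Nr4a1 junction inside intron 1, chr15:101266972-101269046, with 17 reads in all (13 and 4 against 0 and 0). A short junction within exon 7 of Nr4a2, chr2:57108619-57108722, which uses the same inner acceptor, had 15 reads (10 and 5 against 0 and 0). The inner acceptor of Nr4a3, chr4:48067863-48071110, had 18 reads against 0. Nr4a1 and Nr4a2 themselves rose in this comparison. Of its donor's reads the Nr4a1 junction took 1.83% with DRB, and 0 of 71 reads in control cultures allow up to 4.23%, so a difference in share was not detectable at this depth.

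With bicuculline against DRB the Nr4a1 junctions were chr15:101266972-101269046 with 31 reads (14 and 17 against 1 and 10), chr15:101268090-101270082 with 18, chr15:101271866-101272076 with 27 (21 and 6 against 1 and 2) and chr15:101273194-101273428 with 14. The short Nr4a2 junction had 36 reads (18 and 18 against 5 and 16), and chr2:57109266-57110188 had 15. In Nr4a3 chr4:48047955-48048951 had 17 (10 and 7 against 3 and 0). The genes themselves rose in this comparison, and the shares of these junctions were not tested. At P49 against P10 the Nr4a1 junction chr15:101271866-101272076 had 34 reads (17 and 17 against 1 and 3), which was 1.53% ± 0.16 (SD, n = 2) of its donor's reads against 0.60% ± 0.47.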

How the results depend on the processing

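The log2 changes of the members kept their sign in every alternative, and their side of the threshold except for Nr4a2 between the tissue ages (0.19 to 0.36 without a library) and Nr4a3 with DRB (0.17 in a fit of the compared groups). With bicuculline, genes higher and lower numbered 26 and 3, against 45 and 22 without a filter, 1 lower with DESeq2, and 27 to 53 and 5 to 35 without a library. Called junctions without a library ranged over 1560 to 2048 at P49 against P10, 1080 to 1307 with DRB, 0 to 2 with bicuculline, 4394 to 6460 and 5067 to 5566 in control cultures against P10 and P49. The members' called junctions ranged over 0 to 1 in both control comparisons with tissue and with DRB, and were 0 against P10 with limma and with a minimum of 10 reads. Reversed signs, none called, were the Nr4a3 upstream junction at P49 (0.45 with limma, -1.89 to 1.02 without a library), its downstream junction with DRB (-0.30 to 0.87), the Nr4a1 first intron against P10 (-0.40 to 0.36), and the Nr4a2 inner acceptor with bicuculline (-0.43 to 0.39), and the cause was not tested.

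No paired analysis was possible for the first table because its columns carry no shared numbers. In the second table the letters of the column names were used as a replicate block, which called 61 genes higher and 37 lower, with Nr4a1 at 1.39, Nr4a2 at 0.71 and Nr4a3 at 0.33. Deviations of libraries with the same letter correlated at 0.095 over 12081 genes, with 2 pairs, which does not settle whether the letters pair the libraries. With 2 libraries a group, shares built on few reads have wide intervals. Levels per junction took other values with the median over introns (Nr4a3 with bicuculline 11.9) and with the plain library total (Nr4a3 in control cultures 6.54).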
